A study of Mus musculus with 8 samples.

Results

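Hox genes were measured in mouse embryonic fibroblasts, cultured cells grown from the connective tissue of mouse embryos. The 38 Hox genes described here are all genes whose single array symbol begins with Hoxa, Hoxb, Hoxc or Hoxd and a digit, out of 19938 genes with a symbol of their own on the array. They comprise 37 protein-coding genes (10 of the Hoxa, 9 of the Hoxb, 9 of the Hoxc and 9 of the Hoxd cluster) and the antisense transcript Hoxd3os1, and a gene with several probe sets was represented by the brightest. The 4 groups, of 2 arrays each, were line B with tamoxifen, which expresses PKM1 according to its label, line B without tamoxifen (PKM2), line A with tamoxifen (PKM1) and line A without tamoxifen (PKM2). PKM1 and PKM2 are the alternatively spliced forms of muscle pyruvate kinase, the enzyme of the last step of glycolysis. Line A is named MEF10 and line B MEF16 in the labels, and no allele, age or strain is given there. Each line is 1 line, so a difference between lines compares these 2 lines, and the tamoxifen comparison carries the drug and the isoform together.

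Hox genes encode homeodomain transcription factors that give cells along the head-to-tail axis and along the limb their regional identity. They lie in clusters in which the order of the genes follows where they are used in the embryo: low paralog numbers towards the head, high numbers towards the tail, and, in the Hoxa and Hoxd clusters, towards the tip of the limb and the genital bud. Polycomb proteins keep unused Hox genes silent and Trithorax proteins keep used ones active. Cultured fibroblasts are known to keep much of the Hox pattern of the body site they came from.

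The windows shown first belong to the 4 genes, among the 8 Hox genes with the largest absolute line differences, that were estimated lower in line B. The promoters at hand included none for the others of these 8, Hoxb6, Hoxb9, Hoxc6 and Hoxc8, which were estimated higher. Windows of genes lower and higher in line B could thus not be compared. They are 250 bases before the RefSeq gene start (mouse build GRCm38.p6), written 5′ to 3′ on the gene's own strand, and capitals mark CG dinucleotides, where DNA methylation can occur. Hoxa11 is on the minus strand, at chr6:52245811-52246060, and Hoxa13 on the same strand at chr6:52260881-52261130. Hoxd10 is on the plus strand at chr2:74691641-74691890, and Hoxd13 on the same strand at chr2:74667975-74668224.
Hoxa11: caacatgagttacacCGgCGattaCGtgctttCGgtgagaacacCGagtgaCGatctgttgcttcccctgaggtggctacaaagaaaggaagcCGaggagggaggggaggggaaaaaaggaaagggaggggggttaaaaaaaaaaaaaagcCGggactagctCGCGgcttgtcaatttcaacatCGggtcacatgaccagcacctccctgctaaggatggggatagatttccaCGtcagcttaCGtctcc
Hoxa13: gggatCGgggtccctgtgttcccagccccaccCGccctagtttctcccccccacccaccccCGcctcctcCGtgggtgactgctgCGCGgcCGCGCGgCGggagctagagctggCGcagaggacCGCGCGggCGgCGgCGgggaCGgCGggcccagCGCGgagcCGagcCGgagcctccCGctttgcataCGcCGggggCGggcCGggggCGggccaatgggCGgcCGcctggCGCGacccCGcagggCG
Hoxd10: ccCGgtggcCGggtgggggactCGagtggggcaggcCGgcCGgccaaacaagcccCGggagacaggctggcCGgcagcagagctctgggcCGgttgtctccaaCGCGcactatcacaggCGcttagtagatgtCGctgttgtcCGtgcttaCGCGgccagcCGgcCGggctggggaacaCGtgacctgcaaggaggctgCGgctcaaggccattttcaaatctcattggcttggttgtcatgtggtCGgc
Hoxd13: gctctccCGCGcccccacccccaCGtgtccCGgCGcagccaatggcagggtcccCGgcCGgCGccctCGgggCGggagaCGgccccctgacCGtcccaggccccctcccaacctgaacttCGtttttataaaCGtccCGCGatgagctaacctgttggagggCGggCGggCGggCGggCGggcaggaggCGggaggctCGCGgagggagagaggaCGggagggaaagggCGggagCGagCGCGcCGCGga

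These windows held 13 (Hoxa11), 35 (Hoxa13), 20 (Hoxd10) and 31 (Hoxd13) CG dinucleotides, against a median of 12.5 over the 24 windows of 22 Hox genes in the table and of 6 over all 32851 promoters of this length. The Hoxa13 window had more CG than 97.0% of all promoters and the Hoxd13 window more than 94.8%. On either strand, the retinoic acid receptor core AGGTCA and the YY1 core CCATNTT each occurred in the Hoxd10 window and in none of the other 3. These motifs are present in 14% and 12.4% of all promoters, and in 25% and 4.17% of the 24 Hox windows. The Cdx and posterior Hox core TTTATG, the Meis core TGACAG and the Pbx-Hox core TGATNNAT had no match in these 4 windows. Over the 24 Hox windows they were present in 16.7%, 8.33% and 12.5%, against 10.8%, 15.9% and 7.68% of all promoters. The 2 windows of Hoxd11, not shown, held 1 TTTATG and 1 TGATNNAT match. A match of letters is a description and not evidence of binding.

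The clusters also hold microRNA genes of the miR-10 and miR-196 families, some of whose products pair with Hox messages. Their 5p arms are shown because the genes sit inside the clusters compared below, and within each family these arms share a seed (bases 2 to 8, in capitals).
miR-10a-5p: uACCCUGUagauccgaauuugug
miR-10b-5p: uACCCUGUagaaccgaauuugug
miR-196a-5p: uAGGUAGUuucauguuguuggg
miR-196b-5p: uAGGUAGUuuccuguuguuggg

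Over all probe sets the array medians lay between 7.17 and 7.24 on the authors' log2 scale. Replicates of line B correlated at 0.989 (with tamoxifen) and 0.991 (without), and those of line A at 0.997 and 0.996 in the same order. Pkm at gene level, which cannot tell the isoforms apart, lay between 10.75 and 11.41 with tamoxifen and between 10.82 and 11.21 without tamoxifen in line B, and between 10.74 and 10.86 with and 10.99 and 11.19 without in line A. Some label fields speak of mammary tumour tissue, whereas the titles and the design name fibroblasts. Fibroblast markers were bright (Fn1 13.02 to 13.41, Vim 12.96 to 13.14, Prrx1 11.57 to 11.89), while the epithelial adhesion genes Epcam (5.89 to 6.09) and Cdh1 (6.52 to 6.79) were dim in all 8 samples, as was the milk protein gene Csn2. Other markers of these lists were brighter: 4 of 11 epithelial markers (Krt8, Krt19, Cldn3 and Cldn4, chosen after their values were seen, with Krt19 between 7.11 and 7.86) and 1 of 5 mammary secretory markers (Wap, 7.06 to 7.31) were above the background level defined next in all 8 samples. Of 9 blood and macrophage markers measured, Lyz2, Fcer1g and Adgre1 were higher in line B, by 1.83, 0.62 and 0.59 log2 (limma adjusted p under 0.05 for each), where 0.752% of all genes were higher. The mean of the 9 lay between 6.95 and 7.14 in the line B samples and between 6.42 and 6.59 in the line A samples, and 4 of the 9, Adgre1 among them, were never above the background level. For line, each list of 15 fibroblast, 8 endothelial, 8 neural and glial and 6 adipocyte markers had 1 gene higher and 1 lower. Of 8 skeletal muscle markers 1 was higher, and 0 of the epithelial, mammary secretory or chondrocyte and osteoblast markers passed. Over all genes, 0.752% were higher, 0.717% were lower and 1.47% passed either way. The part of other cell types in the differences between lines was not tested, and in bulk RNA fewer cells of a type and less RNA per cell cannot be told apart.

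Most coding Hox genes were above a background level in all 8 samples. This level, the 95th percentile of the mean level of 1194 olfactory and vomeronasal receptor genes, genes of sensory neurons, was 6.84. The array medians over all probe sets (7.17 to 7.24) were above it too, and the share of all genes above it was not counted. A gene above this level is therefore not by that alone shown to be expressed. Of the 37 protein-coding Hox genes, 24 were above it in all 8 samples, 6 were on both sides and 7 were at or under it in all 8. Those 7 were Hoxa3, Hoxb13, Hoxc4, Hoxc11, Hoxc12, Hoxd1 and Hoxd12. The 6 on both sides were Hoxa2, Hoxb4, Hoxc5, Hoxc13, Hoxd3 and Hoxd4. Hoxb13 is known from the prostate and the tail bud. A probe set at this level gives only a bound, and levels of different probe sets were not ranked.

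The first question was whether the lines differ in Hox expression. A pair of genes of the Hoxb cluster known from the trunk, Hoxb6 and Hoxb9, were higher in line B and the digit and hindgut gene Hoxd13 was lower. Hoxb6 was 1.54-fold higher, Hoxb9 was 1.34-fold higher and Hoxd13 was 1.38-fold lower in line B than in line A. These 3 of 38 Hox genes (7.89%) had a limma adjusted p below 0.05 after Benjamini-Hochberg adjustment over all 19938 genes, of which 1.47% passed. By direction, 0.752% of all genes passed as higher and 0.717% as lower in line B.

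Hoxb6, which is active in the trunk and in the lateral plate mesoderm that forms limbs and flank, had log2 values of 8.14 and 8.53 with tamoxifen and 8.38 and 8.08 without in line B, against 7.71 and 7.71 with and 7.50 and 7.71 without in line A. Every line B sample was above every line A sample. Line B averaged 8.28 ± 0.21 and line A 7.66 ± 0.11 (SD, n = 4 each), a difference of 0.62 log2 (SE 0.10, 95% interval 0.40 to 0.85, limma adjusted p = 0.014).

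Hoxb9, which with its paralogs shapes the thoracic ribs, had 8.48 and 8.46 log2 with tamoxifen and 8.30 and 8.31 without in line B, against 8.02 and 7.99 with and 8.07 and 7.80 without in line A. The lines did not overlap. The means were 8.39 ± 0.09 in line B and 7.97 ± 0.12 in line A (SD, n = 4 each), 0.42 log2 apart (SE 0.07, limma adjusted p = 0.019).

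Hoxd13, required for digits and for the hindgut and genital bud, had 8.73 and 8.66 log2 with tamoxifen and 8.91 and 9.06 without in line B, against 9.13 and 9.21 with and 9.55 and 9.35 without in line A. All 4 line B samples were below all 4 line A samples. The means were 8.84 ± 0.18 in line B and 9.31 ± 0.19 in line A (SD, n = 4 each), and the difference of -0.47 log2 had an SE of 0.07 (limma adjusted p = 0.010).

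All 3 calls rest on few arrays. Leaving out either line A array with tamoxifen left 0 of 38 Hox genes past the threshold, and other single arrays also ended the call for Hoxb6 (the line A array numbered 1 without tamoxifen) or Hoxb9 (the arrays numbered 2 without tamoxifen of line B and of line A). With arrays weighted by quality, 6 Hox genes passed, the other 3 being Hoxa13, Hoxc8 and Hoxc10.

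**Figure D1:**
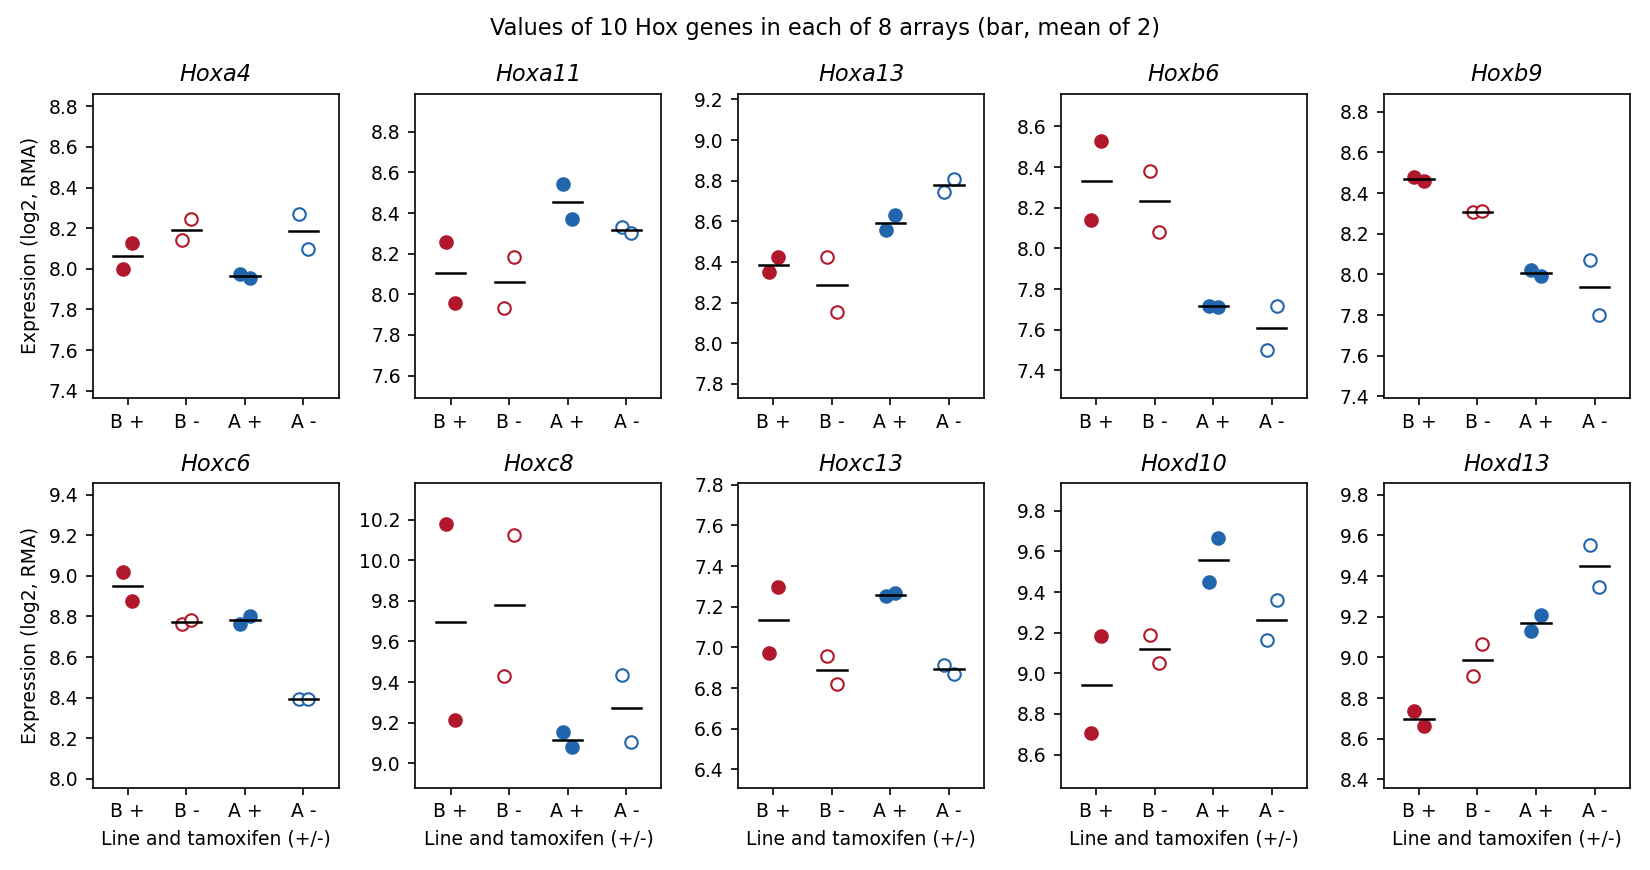
Log2 level of 10 named Hox genes in each of the 8 arrays, by group (line B with and without tamoxifen in red, line A with and without in blue; filled points have tamoxifen), with each vertical axis spanning 1.5 log2 units. Hoxb6 and Hoxb9 lie higher and Hoxd13 lower in all 4 line B samples than in all 4 line A samples, whereas Hoxc8 spans 9.21 to 10.18 within line B.

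Further genes at the distal end of the Hoxa and Hoxd clusters had lower estimates in line B but did not pass. Hoxa13, the partner of Hoxd13 in the hand and foot plate, had 8.35 and 8.42 log2 with tamoxifen and 8.43 and 8.15 without in line B, against 8.56 and 8.63 with and 8.75 and 8.81 without in line A. These values did not overlap, and the difference was -0.35 log2 (SE 0.09, 95% interval -0.54 to -0.16, limma adjusted p = 0.11).

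Hoxa11, which with Hoxd11 patterns the forearm and the kidney, had 8.26 and 7.96 log2 with tamoxifen and 7.93 and 8.18 without in line B, against 8.54 and 8.37 with and 8.33 and 8.30 without in line A. The lowest line A sample stood just above the highest line B sample. The difference was -0.30 log2 (SE 0.09, limma adjusted p = 0.21).

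Hoxd10, a gene of the lumbosacral spinal cord and the hindlimb, had 8.71 and 9.18 log2 with tamoxifen and 9.19 and 9.05 without in line B, against 9.45 and 9.67 with and 9.16 and 9.36 without in line A. The lines overlapped in the samples without tamoxifen. The difference was -0.38 log2 (SE 0.13, limma adjusted p = 0.33), and it was -0.61 with tamoxifen and -0.14 without. Without the line B array numbered 1 with tamoxifen (8.71) it was -0.24 log2.

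Hoxa10, a gene of the upper limb segment and the uterus, differed by -0.22 log2 (SE 0.07, adjusted p = 0.23) and Hoxd11 by -0.26 log2 (SE 0.08, adjusted p = 0.26), each with no overlap between the lines. Hoxa9 differed by -0.09 and Hoxd9 by -0.03 log2, with overlapping samples, and Hoxd12, at or under the background level, by 0.07 log2.

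In the Hoxc cluster, whose middle genes mark the thoracic region, line B had the higher estimates without any gene passing. Hoxc8, a gene of the lower thorax and of brachial motor neurons, had 10.18 and 9.21 log2 with tamoxifen and 9.43 and 10.13 without in line B, against 9.15 and 9.08 with and 9.44 and 9.11 without in line A. In line B, 1 sample of each treatment stood near 10 and the other near the line A values. The difference was 0.54 log2 (SE 0.20, 95% interval 0.10 to 0.99, limma adjusted p = 0.41). Without the line B array numbered 1 with tamoxifen (10.18) it was 0.34 log2.

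Hoxc6, a gene of the anterior thorax, had 9.02 and 8.88 log2 with tamoxifen and 8.76 and 8.78 without in line B, against 8.76 and 8.80 with and 8.39 and 8.39 without in line A. Line A samples with tamoxifen reached the level of line B samples without it. The line difference was 0.27 log2 (SE 0.07, limma adjusted p = 0.14).

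Hoxc5, of the neck region, differed by 0.22 log2 (SE 0.07, adjusted p = 0.25), Hoxc10, of the lumbar region, by 0.26 log2 (SE 0.07, adjusted p = 0.18) and Hoxc9 by 0.25 log2 (SE 0.12, adjusted p = 0.66). Only Hoxc5 among these 3 showed no overlap of the lines, and its values (6.78 to 7.18) lie on both sides of the background level. Hoxc13, known from hair follicles and nails, differed by -0.06 log2 and is taken up again below with tamoxifen.

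At the head end, Hoxb2, a hindbrain gene, had 7.41 and 7.53 log2 with tamoxifen and 7.43 and 7.37 without in line B, against 7.23 and 7.16 with and 7.16 and 7.22 without in line A. The lines did not overlap, and the difference was 0.24 log2 (SE 0.06, limma adjusted p = 0.13). Hoxd4, a gene of the cervical vertebrae, differed by 0.27 log2 (SE 0.08, limma adjusted p = 0.25). Its values (6.43 to 6.92) lie on both sides of the background level. The antisense Hoxd3os1 differed by 0.25 log2 (SE 0.09, limma adjusted p = 0.35), and for both genes the samples overlapped. The 18 Hox genes not described so far had line differences between -0.12 log2 (Hoxa5) and 0.18 log2 (Hoxd8), each with overlapping samples and none past the threshold.

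Read by cluster, the estimates had different signs. The line difference was above 0 for 8 of 9 Hoxb genes (median 0.14 log2) and 8 of 9 Hoxc genes (median 0.22), and below 0 for 8 of 10 Hoxa genes (median -0.08). The Hoxd cluster was split, with 5 genes above and 4 below 0 (median 0.01). Over all genes tested, the median was 0.02 log2, with 11706 of 19938 above 0. The counts by cluster are descriptions of members that share a cluster and the same arrays, and they were not tested. They include the 7 genes never above the background level, Hoxc4, Hoxc11 and Hoxc12 among them, whose probe sets give only bounds.

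By paralog number, all 4 measured Hoxa genes of numbers 9 to 13 were below 0 (median -0.26 log2, range -0.35 to -0.09), as were 4 of the 5 Hoxd genes of these numbers (median -0.26). Of the 5 Hoxc genes of numbers 9 to 13, 4 were above 0 (median 0.07), and the 2 Hoxb genes were split (Hoxb9 above, Hoxb13 below). Among numbers 4 to 8, all 4 Hoxc genes, all 4 Hoxb genes and both Hoxd genes were above 0, and the Hoxa genes were split 2 and 2. Across the genes of a cluster, Spearman's rho between line difference and paralog number was -0.673 for Hoxa (n = 10), -0.617 for Hoxd, -0.533 for Hoxc and 0.017 for Hoxb (n = 9 each). These genes share arrays and neighbours, and the values describe this set. The 7 genes never above the background level enter these counts, medians or rho values, though their probe sets give only bounds. Among them are Hoxb13, Hoxc11, Hoxc12 and Hoxd12 of numbers 9 to 13 and Hoxc4 of numbers 4 to 8.

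**Figure D2:**
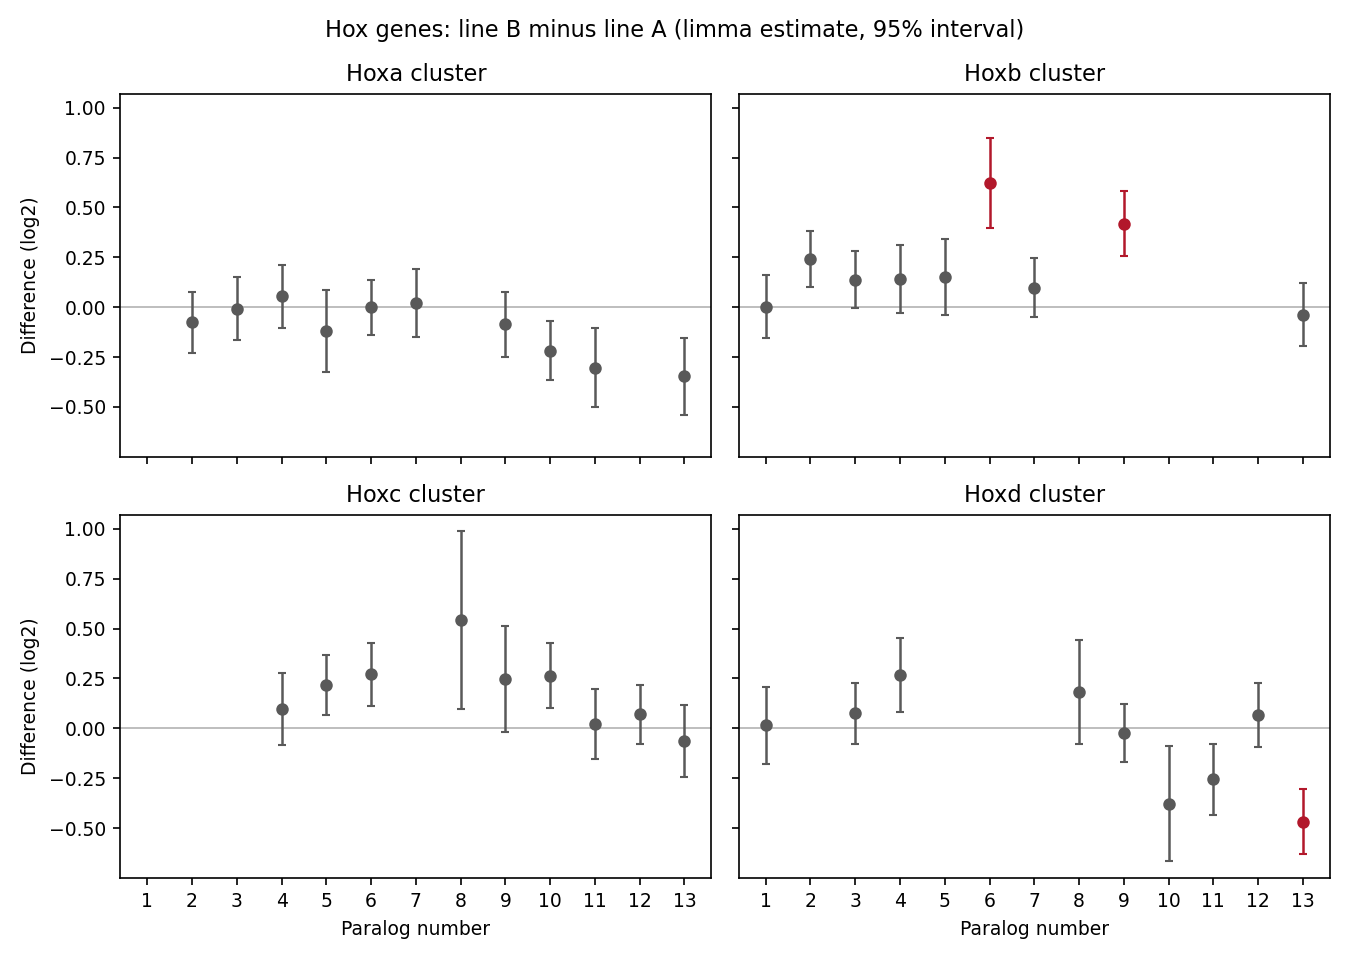
Difference between lines (line B minus line A, log2, limma estimate over both treatments with 95% interval) against paralog number, 1 panel per Hox cluster, with genes past an adjusted p of 0.05 in red. Hoxb6 (0.62) and Hoxb9 (0.42) are the red points above 0 and Hoxd13 (-0.47) is the red point below 0, and the Hoxa and Hoxd estimates from paralog 10 to 13, other than Hoxd12, lie below 0.

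An unadjusted p below 0.05 for line was found for 15 of 38 Hox genes (39.5%), against 8.15% of all genes. The samples of the lines did not overlap for 9 of 38 Hox genes (23.7%), against 4.89% of all genes. Of these, Hoxb2, Hoxb6, Hoxb9 and Hoxc5 were higher in line B (2.96% of all genes were) and Hoxa10, Hoxa11, Hoxa13, Hoxd11 and Hoxd13 were lower (1.93%). The median absolute difference was 0.14 log2 for the Hox genes and 0.06 over all genes. Since 7 of the coding Hox genes never left the background level and dim probe sets compress differences, these shares say nothing of those 7. The shares over all genes include dim genes too, and no comparison with genes of like level was made.

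The line difference could be set side by side in cells with and without tamoxifen, which share no sample. No Hox gene passed in either: 0 of 38 with tamoxifen (0.532% of all genes passed) and 0 of 38 without (0.326%), in limma's model of 4 group means. At an unadjusted p below 0.05 the counts were 10 of 38 with tamoxifen (6.72% of all genes) and 10 of 38 without (5.2%). The sign was the same with and without tamoxifen for 31 of 37 coding Hox genes (83.8%), against 56.4% of all genes. Across the 37 genes, Pearson's r between both differences was 0.838 and Spearman's rho 0.820, against 0.445 and 0.214 over all genes. Here too all genes were not matched to the Hox genes by level. Hoxb6 differed by 0.62 log2 with and 0.62 without tamoxifen, Hoxb9 by 0.46 and 0.37, and Hoxd13 by -0.47 and -0.47. Hoxa13 had -0.21 with and -0.49 without tamoxifen, and Hoxc6 had 0.16 and 0.38.

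**Figure D3:**
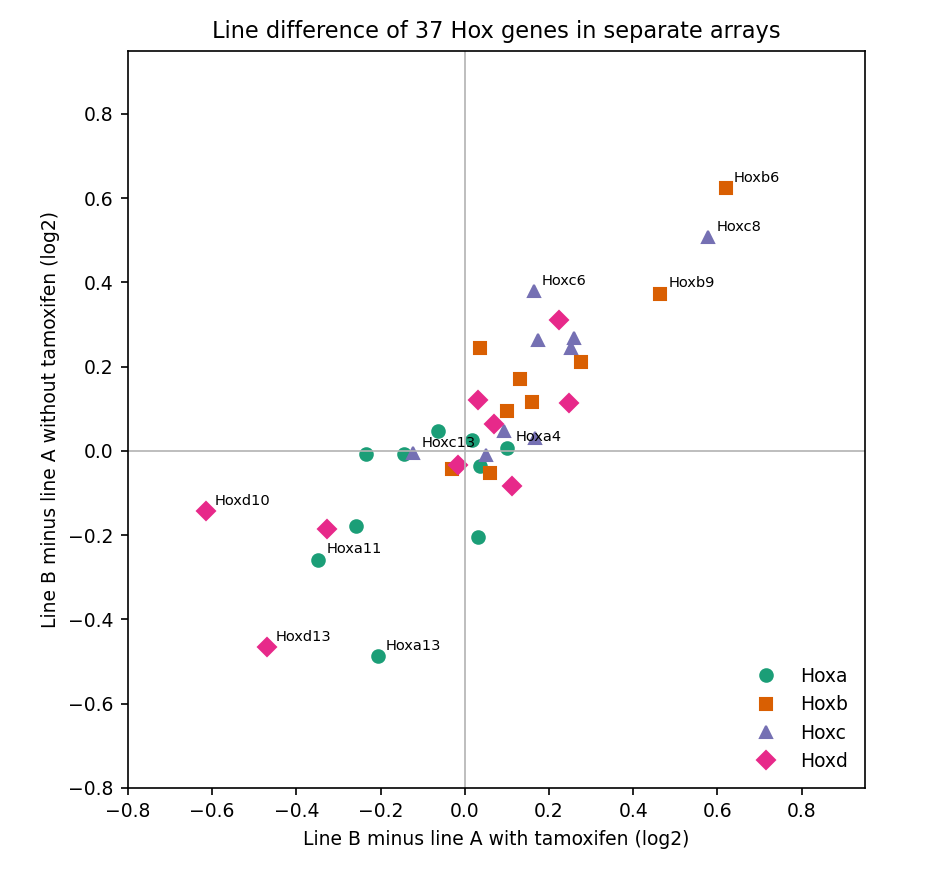
Line difference (line B minus line A, log2) with tamoxifen on the horizontal axis against that without tamoxifen on the vertical axis, 1 point per coding Hox gene (37 genes, Pearson's r 0.838). Hoxb6 lies at 0.62 and 0.62, Hoxd13 at -0.47 and -0.47, and Hoxd10, at -0.61 with and -0.14 without tamoxifen, lies away from the diagonal.

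The second question was whether tamoxifen, with the change of isoform that the labels give, altered Hox expression. No Hox gene passed over both lines: 0 of 38 had a limma adjusted p below 0.05, where 1.32% of all genes did (0.808% as higher and 0.512% as lower with tamoxifen). At an unadjusted p below 0.05 there were 5 of 38 (13.2%), against 9.85% of all genes. The median tamoxifen difference of the Hox genes was 0.01 log2, and the 37 coding genes ranged from -0.29 to 0.31 log2, with 19 above and 18 below 0.

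Hoxc13 had 6.97 and 7.30 log2 in line B and 7.25 and 7.27 in line A with tamoxifen, against 6.96 and 6.82 in line B and 6.91 and 6.87 in line A without tamoxifen. It was the single Hox gene whose samples did not overlap between treatments (1 of 38, 2.63%, against 5.31% of all genes, 2.56% higher and 2.74% lower with tamoxifen), and its lowest treated sample exceeded the highest untreated one only narrowly. The difference was 0.31 log2 (SE 0.08, 95% interval 0.12 to 0.49, limma adjusted p = 0.14), and its lower values lie near the background level. It passed with arrays weighted by quality, and on leaving out the line B array numbered 1 with tamoxifen.

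Hoxc6, whose samples are given above, differed by 0.28 log2 with tamoxifen (SE 0.07, limma adjusted p = 0.11). In each line both treated samples were above both untreated samples. The difference was 0.18 log2 in line B and 0.39 log2 in line A (adjusted p = 0.15 in line A). Hoxc6 passed with arrays weighted by quality.

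Hoxd13 differed by -0.29 log2 (SE 0.07, limma adjusted p = 0.12), with -0.29 in line B and -0.28 in line A. Within each line both treated samples were below both untreated samples. Hoxc6 and Hoxd13 are among the 4 Hox genes with the smallest tamoxifen p-values, so such separation adds no support of its own. How many of all genes show it was not counted. The call for its line difference depends on the tamoxifen term: without that term in the model the limma adjusted p for the lines was 0.12.

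Hoxa4, a gene of the neck vertebrae, had 8.00 and 8.13 log2 in line B and 7.97 and 7.95 in line A with tamoxifen, against 8.14 and 8.24 in line B and 8.27 and 8.10 in line A without. The treated and untreated samples overlapped, and the difference was -0.18 log2 (SE 0.07, limma adjusted p = 0.41). Hoxb3, a hindbrain gene, differed by -0.15 log2 (adjusted p = 0.48).

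Within single lines, 0 of 38 Hox genes passed for tamoxifen in line B (0.0201% of all genes) and 0 of 38 in line A (0.502%). The unadjusted limma p was below 0.05 for 2 in line B (5.26%) and 3 in line A (7.89%). Over all genes these shares were 4.82% and 8.1%. No gene of the whole array passed for a tamoxifen effect that differs between the lines (0%). Among Hox genes only Hoxd3os1 reached an unadjusted limma p below 0.05 there (2.63%, against 2.83% of all genes). Its effect was 0.37 log2 larger in line B than in line A (SE 0.14). The tamoxifen difference had the same sign in both lines for 25 of 37 coding Hox genes (67.6%), against 59.2% of all genes.

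**Figure D4:**
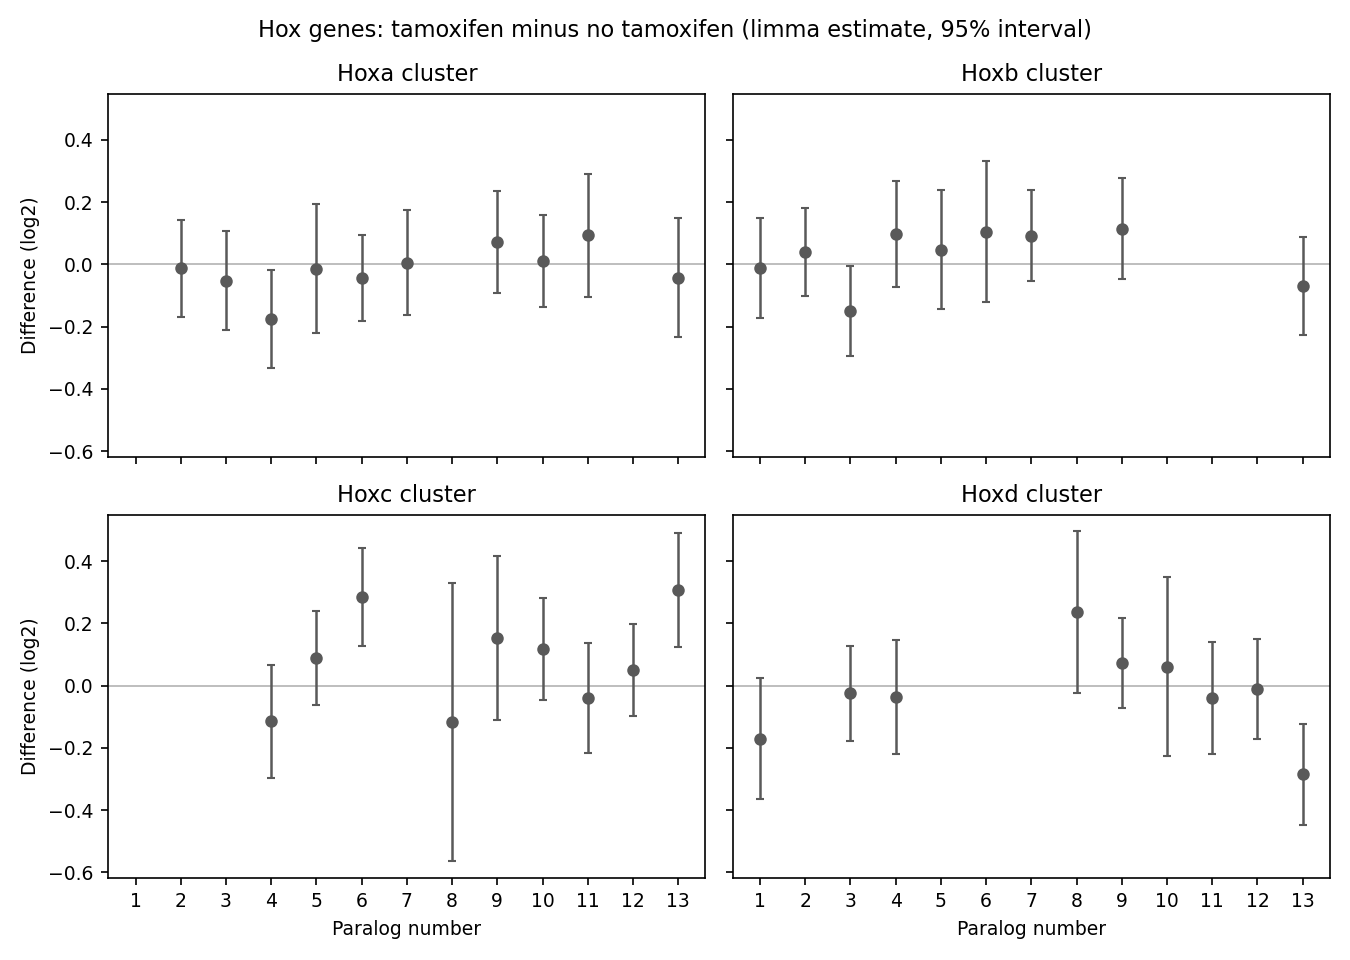
Tamoxifen minus no tamoxifen (log2, limma estimate over both lines with 95% interval) against paralog number, 1 panel per Hox cluster. No point is past an adjusted p of 0.05, and Hoxc13 (0.31), Hoxc6 (0.28) and Hoxd13 (-0.29) lie farthest from 0.

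Noncoding transcripts of the clusters did not pass in either comparison. Of 9 measured, 7 were at or under the background level in all 8 samples. The 5 microRNA genes of the families printed above were all among these 7, so their probe sets give only bounds. Their estimated line differences were -0.01 (Mir10b) to 0.13 log2 (Mir196b). Hottip, transcribed beside Hoxa13, differed by -0.13 log2, and its values (6.58 to 6.87) lie on both sides of the background level. Haglr, in the Hoxd cluster, differed by 0.28 log2 and was among the 7 at or under that level. Of 20 genes measured beside the clusters, 0 passed for line and 0 for tamoxifen, against 1.47% and 1.32% of all genes, with a median line difference of -0.02 log2.

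Among 9 measured TALE genes, whose homeodomain proteins bind DNA together with Hox proteins, Meis1 was higher in line B and the other 8 did not pass (1 of 9, where 0.752% of all genes were higher and 1.47% passed either way). Meis1 had 9.15 and 8.79 log2 with tamoxifen and 8.96 and 9.06 without in line B, against 8.63 and 8.60 with and 8.38 and 8.42 without in line A. The lines did not overlap, and the difference was 0.49 log2 (SE 0.09, limma adjusted p = 0.028). The median over the 9 genes was 0.05 log2.

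Of 33 Polycomb and Trithorax genes, 0 passed for line (median 0.03 log2), where 1.47% of all genes did. With tamoxifen 1 of the 33 fell, Ezh2, the methyltransferase of Polycomb complex PRC2, by 0.36 log2 (adjusted p = 0.034), where 0.512% of all genes were lower. Of 22 genes for the retinoic acid, Cdx and Gdf11 signals that set Hox domains, 0 passed for line or tamoxifen, where 1.47% and 1.32% of all genes did.

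Genes of body regions other than the Hox genes also differed between the lines. Of 30 limb and girdle genes, 4 were lower and 0 higher in line B, where 0.717% of all genes were lower and 0.752% higher. The largest difference was that of Fgf10, the mesenchymal signal that starts limb and lung buds, at -0.75 log2 (7.89 ± 0.23 in line B and 8.64 ± 0.06 in line A, SD, n = 4 each, limma adjusted p = 0.0059). Dlx5, Msx2 and Tbx18 differed by -0.40, -0.36 and -0.32 log2. The forelimb gene Tbx5 (-0.24 log2, adjusted p = 0.42) and the hindlimb genes Tbx4 (-0.28, adjusted p = 0.59) and Pitx1 (0.01) did not pass.

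Of 20 genes of the head and cranial neural crest, 3 were lower and 0 higher in line B, beside the same 0.717% and 0.752% of all genes. Tfap2b differed by -0.62, Foxc1 by -0.57 and Tfap2a by -0.40 log2. Tfap2b was also the 1 gene of this list that passed for tamoxifen, at -0.35 log2 (adjusted p = 0.021), where 1.32% of all genes passed. Of 33 trunk mesoderm genes, Twist2, a dermal fibroblast factor, was higher in line B (0.47 log2), and Meox2 and Eya1 were lower (-0.61 and -0.42 log2), 3 of 33 where 1.47% of all genes passed. The medians of these 3 lists were -0.02, -0.01 and -0.03 log2, near the 0.02 log2 of all genes.

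Of 4 sex-linked genes measured, 0 passed for line, where 1.47% of all genes did. Xist, expressed from the inactive X chromosome of female cells, averaged 11.53 ± 0.13 log2 in line B and 11.75 ± 0.03 in line A (SD, n = 4 each, limma adjusted p = 0.35), with all line B samples below all line A samples. The Y-linked Eif2s3y, Kdm5d and Uty lay between 3.76 and 5.65 log2, under the background level, in all 8 samples.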

How the data were processed

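RNA of 8 samples was measured on Affymetrix arrays. The authors deposited log2 values per probe set, which per the series' design text were RMA normalized in Affymetrix Expression Console; the sources used here name no version. The method quantile-normalizes arrays and compresses differences of dim probe sets.

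Probe sets with 1 symbol in GEO's platform annotation (21789 of 35556) gave 19938 genes. Of their gene IDs, 21698 matched the RefSeq table, with 0 symbols changed. Genes were fitted with limma 3.58.1 in R 4.3.3 (lmFit, eBayes), with line and tamoxifen as terms (5 residual degrees of freedom), or with 4 group means (4 residual degrees of freedom) for comparisons within a line or treatment. P-values were Benjamini-Hochberg adjusted over all genes, at 0.05. The scripts were tested on simulated data. The array number limits precision.

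Members and gene lists were chosen with earlier results of these data known. Values in every sample are given for Hox genes past the threshold, the 8 largest line differences and the 4 smallest tamoxifen p-values. Other genes named with values, such as Hoxa10, Hoxb2, Hoxd11 and Tbx5, were chosen after their values were seen. From each list, up to 4 genes past the threshold are named.

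Replicates carry no number in the labels, and were numbered in accession order, which pairs nothing. Nothing says that they came from separate cultures, so the spread behind the p-values is that of these arrays and could be technical. Scan dates were not used here. Promoter and microRNA sequences are from RefSeq (GRCm38.p6). Alternatives changed the normalization, the filter on dim genes, the choice of probe set, array weights and the model, or left out each array in turn.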

Additional observations from a re-analysis of the deposited data

How the results depend on the processing

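No paired analysis was possible because the labels number no replicates. Hox genes past the threshold for line numbered 3, and 6 with array weights, 0 to 3 on leaving out 1 array. For tamoxifen over both lines they numbered 0, and 2 with array weights, 0 to 1 on leaving out 1 array. For tamoxifen in line A they numbered 0, and 1 with array weights or with only the 4 samples of the comparison (Hoxc6). Hoxb6 stayed past the threshold in 14 of 17 alternatives (adjusted p up to 0.074), Hoxb9 in 13 (up to 0.10) and Hoxd13 in 14 (up to 0.12). The sign of their line differences held in all 17, but most of these could not have reversed it. The lines do not overlap for these 3 genes, so leaving out 1 array could not change the sign. The alternatives of the filter on dim genes, the choice of probe set and the model left the estimates themselves unchanged.

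Estimates of genes that did not pass reversed, among those with 1 array left out, to the following values. Without the line B array numbered 1 with tamoxifen, the Hoxc13 line difference was 0.0132 log2. The tamoxifen difference of Hoxc8 was 0.0135 or 0.0672 log2 without the arrays numbered 2 of line B, and that of Hoxd10 was -0.0305 or -0.0267 log2 without 1 of 2 line A arrays. On leaving out 1 array, the Hoxc13 line difference ranged from -0.12 to 0.0132 log2, and the tamoxifen differences of Hoxa13 from -0.13 to 0.00011, of Hoxc8 from -0.32 to 0.0672 and of Hoxd10 from -0.0305 to 0.20 log2.

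Counts over all genes moved more. Those given over every probe set are numbers of probe sets and not of genes. For line there were 293, with 441 by array weights, 128 without the tamoxifen term and 116 to 283 with 1 array left out. For line with tamoxifen there were 106, with 195 over every probe set, 20 from only 4 samples and 0 to 102 with 1 array left out. For line without tamoxifen there were 65, with 15 from only 4 samples and 4 to 79 with 1 array left out. For tamoxifen over both lines there were 263, with 983 by array weights, 132 without the line term and 58 to 353 with 1 array left out. For tamoxifen in line B there were 4, with 2 after a shift to a common median, after quantile normalization or from only 4 samples, 1 by array weights and 0 to 6 with 1 array left out. For tamoxifen in line A there were 100, with 64 after the shift, 525 by array weights, 183 over every probe set, 543 from only 4 samples and 0 to 143 with 1 array left out. Causes were not tested, beyond the fewer samples or other probe sets that the alternatives use.

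The groups hold 2 arrays each, and 7 coding Hox genes at the background level give only bounds.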

Other observations

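A probe set shared by Hoxb8 and Hoxb7, trunk genes of the Hoxb cluster, enters no comparison above because its signal cannot be assigned to either gene. It had 7.21 and 7.43 log2 with tamoxifen and 7.26 and 7.20 without in line B, against 6.96 and 7.07 with and 6.87 and 7.06 without in line A. All 4 line B samples were above all 4 line A samples, by 0.29 log2 between the means, while the probe set of Hoxb7 alone differed by 0.10 log2 with overlapping samples. A second, dimmer probe set of Hoxd3os1 differed by -0.02 log2, against 0.25 log2 for the one described above, and neither has a passing test.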
